A study of Homo sapiens with 17 samples.

Results

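The genes described here make, carry, break down or sense the vitamin-derived hormones retinoic acid and calcitriol. They are 10 of the 26457 RefSeq genes in the deposited expression table, namely ALDH1A1, ALDH1A2, ALDH1A3, DHRS3, CRABP2, RARA, RARB, RXRA, VDR and CYP24A1. They were chosen by gene symbol, with their values in these same 8 libraries already known, so that their fold changes are a description of these libraries and are given with standard errors and without p-values. The libraries came from SW480 cells, a human colon cancer cell line that expresses mutant p53 (mutp53), in an mRNA-seq experiment that asked how mutp53 alters gene expression before and during chronic TNF-α treatment. Control cells carried a stable, doxycycline-inducible short hairpin RNA against LacZ (shLacZ), and mutp53-depleted cells carried such a hairpin against p53 (shp53). Both were kept in puromycin at 1.5 μg per ml, were induced with doxycycline at 1 μg per ml, and were harvested without TNF-α (0 h) or after 16 h of TNF-α at 12.5 ng per ml. The 4 groups have 2 replicates each, A and B. Control and depleted cells are separate lines, so that the effect of the hairpin and any other difference between the lines cannot be told apart.

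Cells take up retinol, oxidize it reversibly to retinal with retinol dehydrogenases, and oxidize retinal irreversibly to retinoic acid with the ALDH1A enzymes. DHRS3 runs the first step backwards, from retinal to retinol. CRABP2 carries retinoic acid to the nucleus, where RARA, RARB and RARG bind it as partners of a retinoid X receptor such as RXRA, and CYP26 enzymes hydroxylate it for disposal. VDR, the receptor of calcitriol (the active form of vitamin D), also binds DNA together with a retinoid X receptor, and its classical target gene CYP24A1 encodes the enzyme that degrades calcitriol. In colon epithelium both hormones are known for restraining growth and favouring differentiation.

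Each deposited value is the reads on a gene's exons, scaled to an equal total in every library, and is called normalized reads here. Libraries held from 6108488 to 13809578 reads on genes, and 1 read was worth 0.67 to 1.51 normalized reads. Differences were fitted with limma on log2(normalized reads + 1) over 14800 genes whose mean reached 2.5. Calls required a limma adjusted p (Benjamini-Hochberg, over all of them) under 0.05 as well as a 2-fold change. Of 10 markers of colon epithelial cells, 7 had a mean of at least 10 normalized reads, with KRT8, KRT18 and KRT19 highest and CDX1 listed at 0 in every library. Their summed level was 66178 to 70710 normalized reads in untreated control cells, 56297 to 56382 in control cells at 16 h, 52456 to 52480 in depleted cells at 0 h and 42732 to 43897 in depleted cells at 16 h. Fibroblast markers summed to 28.5 to 39.4 normalized reads in control libraries, to 158 and 177 in depleted cells at 0 h and to 56.2 and 59.2 in depleted cells at 16 h, with COL3A1 and DCN listed at 0. Leukocyte markers, with PTPRC at 0, summed to 24.2 and 25.4 in untreated control cells, 47.4 and 51.2 in control cells at 16 h, 59.0 and 59.6 in depleted cells at 0 h and 80.5 and 85.2 in depleted cells at 16 h. Endothelial markers summed to 5.69 to 7.26 in control libraries and 17.6 to 28.8 in depleted libraries. Few genes carried these sums. In depleted cells at 0 h, COL1A1 had 88.5 and 106 normalized reads, PDGFRB 69.7 and 69.9, and VWF 28.8 and 21.9. CD68 had 72.9 and 74.1 in depleted cells at 16 h. The higher sums are thus those of single genes and not of whole marker sets. Among the epithelial markers, VIL1 (villin) had 545 and 480 normalized reads in untreated control cells, 125 and 112 in control cells at 16 h, 8.71 and 12.3 in depleted cells at 0 h, and 5.03 and 0 in depleted cells at 16 h. EPCAM was also lower after depletion, with log2 fold changes of −1.29 at 0 h and −1.06 at 16 h. CDH1 (−0.81 and −0.45), KRT8 (−0.31 and −0.43) and KRT18 (−0.52 and −0.53) were lower by less than 2-fold. KRT19 (0.26 and 0.26) and CDX2 (0.12 and 0.21) were instead higher, so that the epithelial markers did not move together. The part of these marker differences in the results was not tested.

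In untreated control cells the chain from retinal to receptor was represented by ALDH1A3 as the retinoic acid-forming enzyme and RARA as the retinoic acid receptor among the genes described. Per kilobase of exon, CRABP2 was highest with 2703 ± 301 normalized reads (mean ± SD, n = 2), above 99.1% of the genes with a read. ALDH1A3 followed with 1852 ± 14.9, VDR with 597 ± 31.3 and DHRS3 with 405 ± 0.28. RXRA had 222 ± 1.22, RARA 168 ± 16.9 and CYP24A1 14.2 ± 1.67 per kilobase. Each neighbouring pair in this order was further apart than the spread between its replicates. The other 3 genes were under the filter on low values and were not tested. ALDH1A1, the main family member of many adult epithelia, had 0 reads in all 8 libraries, which allows up to 3 reads or 2.01 to 4.54 normalized reads in a library. ALDH1A2, the main family member of the embryo, had 1 read in replicate B of each control group and none elsewhere. RARB, a receptor whose gene is a classical target of retinoic acid, had 1 read in replicate B of depleted cells at 0 h and 1 in replicate A of depleted cells at 16 h. Its counted transcript model is a noncoding one (NR_110893).

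The promoters of 3 genes are shown: ALDH1A3 and CRABP2, the most abundant of the 10 per kilobase, and RARB, a classical target of retinoic acid with 2 reads in all. Each is the 250 bases before a RefSeq transcript start in GRCh38.p14, on the strand of the gene, and capitals mark the motifs found. ALDH1A3 lies at chr15:100879581-100879830 (+), CRABP2 at chr1:156705785-156706034 (−) and the first of 4 listed RARB starts at chr3:25428013-25428262 (+).
ALDH1A3: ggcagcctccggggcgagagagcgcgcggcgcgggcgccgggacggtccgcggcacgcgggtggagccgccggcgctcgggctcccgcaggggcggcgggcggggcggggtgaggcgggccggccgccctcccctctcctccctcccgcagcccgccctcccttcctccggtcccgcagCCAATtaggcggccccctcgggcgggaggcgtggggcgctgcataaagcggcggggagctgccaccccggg
CRABP2: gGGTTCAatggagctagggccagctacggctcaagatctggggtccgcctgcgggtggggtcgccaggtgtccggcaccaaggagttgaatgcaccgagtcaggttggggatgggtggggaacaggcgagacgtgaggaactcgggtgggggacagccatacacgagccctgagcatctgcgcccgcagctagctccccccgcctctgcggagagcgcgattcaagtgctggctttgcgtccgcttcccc
RARB: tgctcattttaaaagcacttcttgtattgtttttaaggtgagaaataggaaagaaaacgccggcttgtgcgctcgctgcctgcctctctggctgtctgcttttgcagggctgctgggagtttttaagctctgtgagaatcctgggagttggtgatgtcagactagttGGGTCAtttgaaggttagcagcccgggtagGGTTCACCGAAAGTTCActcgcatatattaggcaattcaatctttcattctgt
The motifs searched on both strands were the receptor hexamer AGGTCA and its common variants (AGTTCA among them, with GGGTCA as a further form and GGTTCA as the last), their direct repeats 3 or 5 bases apart (the spacings used by VDR and by retinoic acid receptors), an NF-κB consensus, TATAAA and CCAAT. The RARB promoter held a direct repeat with 5 bases between its hexamers at −53 to −37, which 0.074% of the 35116 promoters in the RefSeq table hold, and another hexamer at −83. CRABP2 held a single hexamer at −249, as 33.8% of promoters hold at least 1 hexamer, counting those within repeats. ALDH1A3 held none and had a CCAAT box at −71 (32% of promoters) in a window with 82.4% GC, against a median of 58% over all promoters. RARA had an NF-κB consensus, which 9.96% of promoters hold, at its second listed start. None of the 17 listed starts of the 8 genes in the table (CYP24A1 and VDR had no entry) held a direct repeat 3 bases apart, found in 0.0655% of promoters, or TATAAA, found in 10.7%.

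Depletion of mutp53 went with lower levels of the enzymes, the carrier and VDR and a higher level of RARA. At 0 h, 1 of the 7 genes tested was called lower (ALDH1A3) and 0 were called higher, where 9.55% of all genes tested were called lower and 5.89% higher. edgeR and DESeq2, run on the recovered reads, each called 2 lower (ALDH1A3 and DHRS3) and 0 higher. At 16 h, 5 were called lower (ALDH1A3, DHRS3, CRABP2, VDR and CYP24A1) and 0 higher, where 10.2% of all genes were called lower and 5.03% higher. edgeR and DESeq2 also gave 5 lower and 0 higher, and the gene that was higher without a 2-fold change was RARA at both times. TNF-α in control cells had CYP24A1 called higher and CRABP2 lower, against 2.97% and 4.27% of all genes. In mutp53-depleted cells it had CYP24A1 called higher and CRABP2 and DHRS3 lower, against 1.86% and 4.5%. The depletion effect at 16 h less that at 0 h, called at the adjusted p alone, was called for 2 of the 7, both lower (DHRS3 and VDR), where 2.21% of all genes were called lower and 0.655% higher. Since the genes were chosen on these libraries, nothing is read from their counts against these shares. The share of all genes whose depleted and control libraries do not overlap was not counted. Nothing is therefore read from such separations where they are described below. The 3 untested genes enter none of them. The comparisons share libraries, so that each gene's values are set side by side and not correlated.

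**Figure D1:**
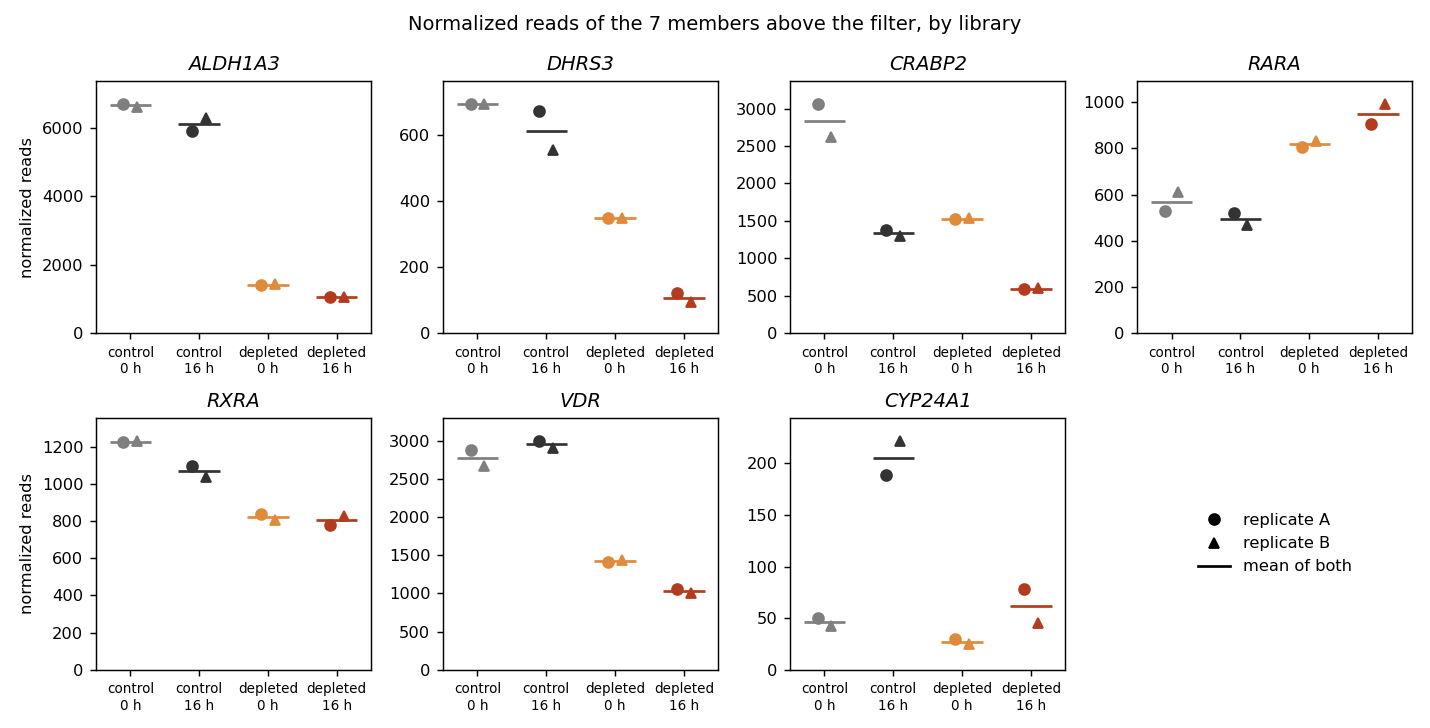
Normalized reads (vertical axes, linear and from 0) of the 7 genes tested in each of the 8 libraries, with circles for replicate A, triangles for replicate B and a line at the mean of both. ALDH1A3, DHRS3, VDR, RXRA and RARA separate all depleted from all control libraries, with RARA higher and the others lower in depleted cells. The share of all genes that separate in this way was not counted. CRABP2 is lowest where depletion and TNF-α are combined, and CYP24A1 is highest in control cells at 16 h.

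ALDH1A3, which oxidizes retinal to retinoic acid, was the gene of the 10 with the largest difference at 0 h. It is counted on NM_000693 (chr15:101419897-101456830, + strand, hg19). It had 6690 and 6614 normalized reads in untreated control cells, 5908 and 6281 in control cells at 16 h, 1393 and 1426 in depleted cells at 0 h, and 1050 and 1051 in depleted cells at 16 h. All 4 depleted libraries lay below all 4 control libraries. The level was 4.72-fold lower after depletion at 0 h (log2 fold change −2.24, SE 0.07) and 5.79-fold lower at 16 h (−2.53, SE 0.07). TNF-α moved it little beside this, by −0.13 (SE 0.07) in control cells and −0.42 (SE 0.07) in depleted cells, neither of them a 2-fold change. The depletion effect at 16 h was more negative than at 0 h (difference −0.30), with a 95% interval of −0.49 to −0.10 for the difference, which did not pass the adjusted p.

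DHRS3, which returns retinal to retinol, was the gene of the 7 tested whose depletion effect differed most between 0 h and 16 h. Its reads were counted on NM_004753 (chr1:12627939-12677737, − strand, hg19). It had 695 and 694 normalized reads in untreated control cells and 674 and 553 at 16 h, and 350 and 350 in depleted cells at 0 h and 122 and 92.6 at 16 h. Control cells kept most of their DHRS3 through TNF-α, whereas depleted cells started lower and ended lowest. The log2 fold change of depletion was −0.99 (SE 0.12) at 0 h, a 1.98-fold difference just under the limit of 2, and −2.51 (SE 0.12) at 16 h. TNF-α gave −0.18 (SE 0.12) in control cells and −1.71 (SE 0.12) in depleted cells. The difference between the depletion effects was −1.52 (SE 0.18), and no library of the depleted cells at 16 h came near those of any other group. On the log2 scale this is the largest such difference among the 7 genes tested.

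CRABP2, the retinoic acid carrier, was lower both after TNF-α and after depletion. The counted transcript is NM_001878 (chr1:156669400-156675459, − strand, hg19). Its normalized reads were 3061 and 2615 in control cells at 0 h, 1377 and 1296 in control cells at 16 h, 1518 and 1540 in depleted cells at 0 h, and 584 and 601 in depleted cells at 16 h. TNF-α alone and depletion alone thus left similar levels, and the combination left the lowest, without overlap of the groups compared. TNF-α gave a log2 fold change of −1.08 (SE 0.08) in control cells and −1.37 (SE 0.08) in depleted cells. Without replicate A of control cells at 0 h the former was −0.97 and no longer a 2-fold change. Depletion gave −0.89 (SE 0.08) at 0 h, under 2-fold, and −1.17 (SE 0.08) at 16 h. The difference between the depletion effects was −0.28 (95% interval −0.52 to −0.05) and did not pass the adjusted p. From untreated control cells to TNF-treated depleted cells the mean level of CRABP2 was 4.79-fold lower, compared with 6.33-fold for ALDH1A3 and 6.46-fold for DHRS3.

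RARA, a retinoic acid receptor, was the only one of the 7 genes tested whose level was higher in depleted cells at both times. It is counted on NM_001145301 (chr17:38474473-38513895, + strand, hg19). It had 528 and 609 normalized reads in untreated control cells, 521 and 467 in control cells at 16 h, 807 and 832 in depleted cells at 0 h, and 905 and 992 in depleted cells at 16 h. The depleted libraries all lay above the control libraries. The differences were under 2-fold, with a log2 fold change of 0.53 (SE 0.09) at 0 h and 0.94 (SE 0.09) at 16 h. Without replicate A of control cells at 16 h the latter was 1.02 and without replicate A of depleted cells at 16 h it was 1.01, and RARA was then called higher. TNF-α gave −0.20 (SE 0.09) in control cells and 0.21 (SE 0.09) in depleted cells, values that did not pass the adjusted p.

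RXRA is the shared partner of RARA and VDR. Its reads were counted on NM_002957 (chr9:137218309-137332432, + strand, hg19). It had 1222 and 1232 normalized reads in untreated control cells, 1096 and 1036 in control cells at 16 h, 839 and 806 in depleted cells at 0 h, and 781 and 828 in depleted cells at 16 h. Its depletion differences were −0.58 (SE 0.07) at 0 h and −0.41 (SE 0.07) at 16 h, both under 2-fold. In depleted cells the 0 h and 16 h libraries overlapped, with a log2 fold change of −0.03 (95% interval −0.19 to 0.12), and in control cells TNF-α gave −0.20 (SE 0.07). Per kilobase, the ratio of RARA to RXRA was 0.705 to 0.806 in the 4 control libraries and 1.57 to 1.95 in the 4 depleted libraries. Per kilobase, RXRA was thus the more abundant of the pair in control cells and RARA in depleted cells. This order depends on the length of a single transcript model per gene, 3385 bases for RARA and 5518 for RXRA. Before division by length, RARA (807 and 832) and RXRA (839 and 806) overlapped in depleted cells at 0 h.

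VDR was lower in every depleted library than in any control library. The counted transcript is NM_000376 (chr12:48235320-48298814, − strand, hg19). It had 2875 and 2669 normalized reads in untreated control cells, 3000 and 2902 in control cells at 16 h, 1411 and 1440 in depleted cells at 0 h, and 1062 and 1008 in depleted cells at 16 h. Depletion gave a log2 fold change of −0.96 (SE 0.07) at 0 h, a 1.94-fold difference, and −1.51 (SE 0.07) at 16 h. Without replicate B of control cells at 0 h the former was −1.01, past the limit of 2-fold. TNF-α gave 0.09 (SE 0.07) in control cells and −0.46 (SE 0.07) in depleted cells, so that the 2 lines moved apart, by −0.55 (SE 0.10) between the depletion effects.

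CYP24A1, which degrades calcitriol, was the gene of the 10 that TNF-α raised. It is counted on NM_000782 (chr20:52769988-52790516, − strand, hg19). It had 50.1 and 42.4 normalized reads in untreated control cells and 189 and 222 at 16 h, and 29.5 and 24.7 in depleted cells at 0 h and 78.0 and 45.7 at 16 h. These rest on 69, 28, 195, 156, 44, 18, 93 and 37 reads in the same order, so that its levels are the least precise of the 7. TNF-α gave a log2 fold change of 2.13 (SE 0.25) in control cells and 1.12 (SE 0.25) in depleted cells, and the mean of the treated depleted libraries was 1.34-fold that of untreated control cells. The call in depleted cells was lost without replicate B of depleted cells at 0 h (0.99) and without replicate A of depleted cells at 16 h (0.74). Depletion gave −0.75 (SE 0.25) at 0 h, under 2-fold, and −1.76 (SE 0.25) at 16 h. The difference between the depletion effects was −1.01 (95% interval −1.74 to −0.28), which did not pass the adjusted p over all genes. Leaving out 1 library gave −1.39 to −0.63. The value of −1.39 came without replicate A of depleted cells at 16 h, which left that group 1 library with 37 reads.

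**Figure D2:**
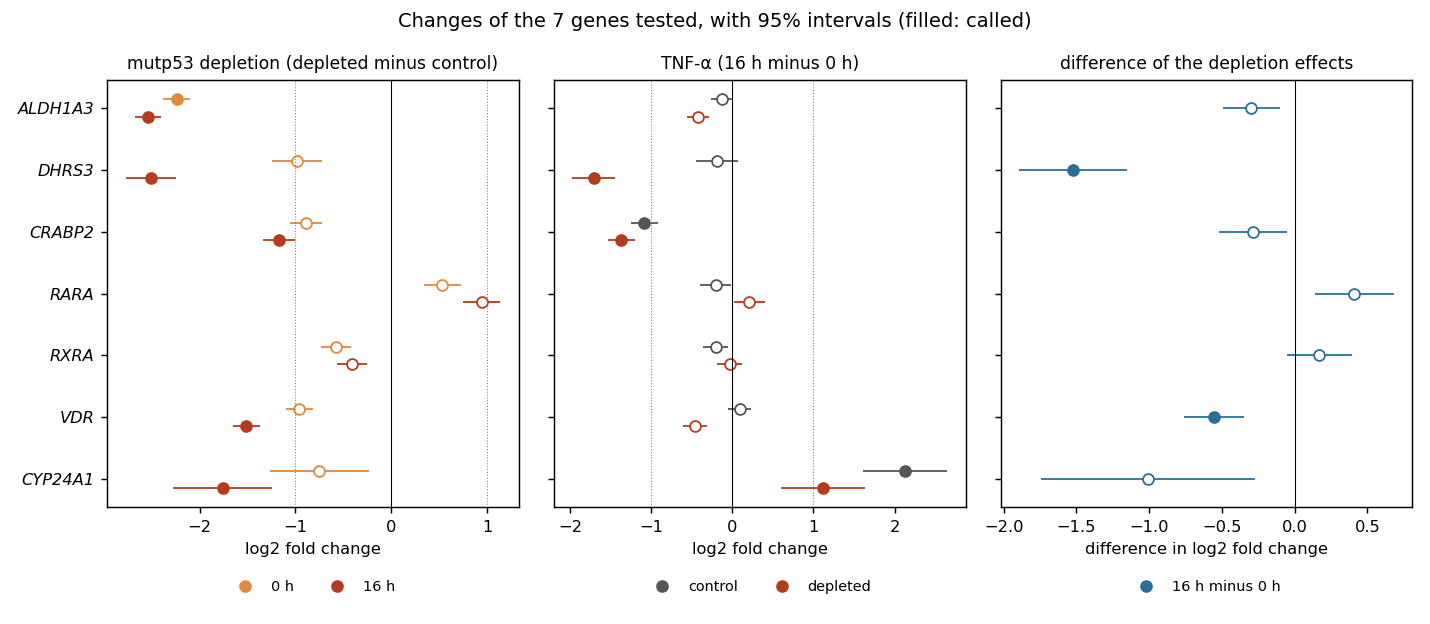
Log2 fold changes of the 7 genes tested (horizontal axes) with 95% intervals for mutp53 depletion, for TNF-α and for the depletion effect at 16 h less that at 0 h, with filled points for calls and dotted lines at 2-fold. ALDH1A3 is past 2-fold at both times, DHRS3 has the largest difference between the times at −1.52, and CYP24A1 is the gene to the right of 2-fold under TNF-α.

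Each gene's depletion effect was set beside the median of a window of up to 51 tested genes around it on its chromosome. The window included the gene itself and was cut short near a chromosome end. These neighbours had a median log2 fold change of 0.50 at 0 h and 0.36 at 16 h for VDR, on chromosome 12, and 0.49 and 0.56 for RARA, on chromosome 17. VDR thus lay opposite to its neighbours. To remove the neighbours' shift, 1 median of all 4 depleted less all 4 control libraries was taken for each gene, both times together, which was 0.48 for VDR and −0.43 for RXRA. With it removed, the difference of VDR at 0 h was −1.44. At 0 h RARA moved with its neighbours, whose 0.49 is close to its own 0.53, whereas at 16 h its 0.94 lay above their 0.56. RXRA lay close to its neighbours, at −0.39 and −0.25. Its own −0.41 at 16 h became 0.03 with the −0.43 of both times removed, whereas it stays below its neighbours at 16 h alone (−0.25). The neighbours of ALDH1A3 (−0.26 and −0.42), DHRS3 (−0.16 and −0.18), CRABP2 (−0.13 and −0.25) and CYP24A1 (0.20 and 0.14) differed far less than these genes did.

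**Figure D3:**
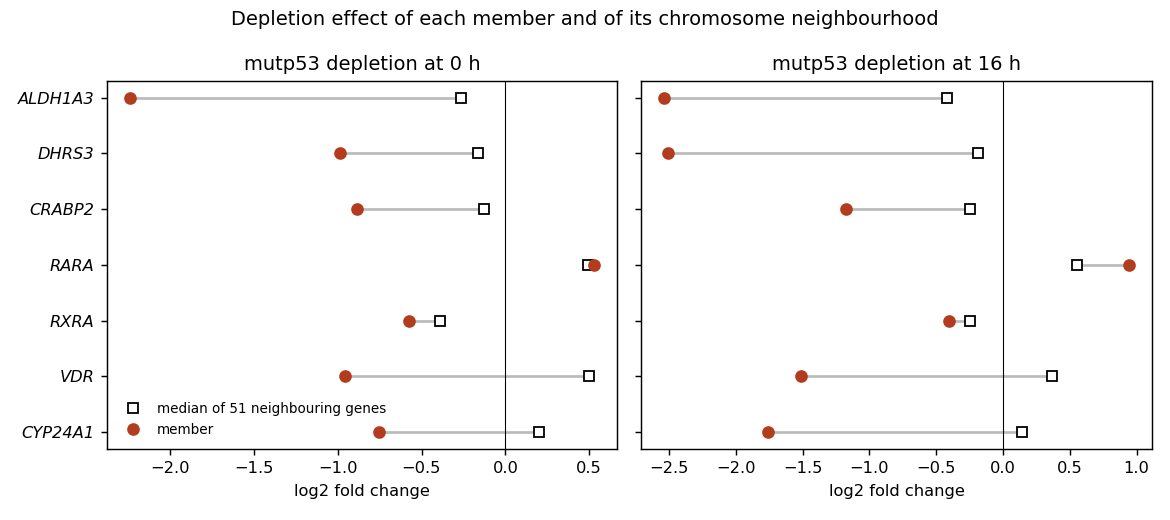
Log2 fold change of mutp53 depletion (horizontal axes) for each of the 7 genes tested (filled circles) and the median of up to 51 neighbouring genes (open squares), joined by a grey line. VDR and its neighbours lie on opposite sides of 0, and the RARA and RXRA symbols lie close to those of their neighbours at 0 h.

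The balance of these genes within a library also shifted. Per kilobase, CRABP2 exceeded ALDH1A3 by 1.35- to 1.57-fold in control cells at 0 h and by 3.69- to 3.73-fold in depleted cells at 0 h, while in control cells at 16 h the ratio was 0.706 to 0.797. In depleted cells at 16 h it was 1.90 to 1.96. The carrier was lower relative to the enzyme after TNF-α in both lines, and the enzyme was lower relative to the carrier in the depleted line at both times.

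The other 70 genes listed for these pathways were all in the table, 15 of them without a read, and 41 were tested. At 0 h 8 of the 41 were called lower after depletion and 0 higher, beside 9.55% and 5.89% of all genes tested, with a median log2 fold change of −0.25 against 0.03 over all genes tested. At 16 h 8 were again called lower and 0 higher, beside 10.2% and 5.03%, with a median of −0.23 against −0.01. Without the 2-fold limit, at an unadjusted limma p under 0.05, 10 genes of the list were higher and 20 lower at 0 h. At 16 h 6 were higher and 18 lower, and edgeR and DESeq2 called 0 of the list higher at either time. The share of all genes passing this unadjusted limit was not counted, so that nothing is read from these counts. LRP2 (megalin), which takes up vitamin D bound to its carrier protein, fell most, from 605 and 809 normalized reads in control cells at 0 h to 34.2 and 27.4 in depleted cells (log2 fold change −4.47, limma adjusted p = 1.6e-10). At 16 h it had 71.5 and 56.9 in control cells and 2 reads in each depleted library, at least 20.7-fold lower. ALDH3A1, an aldehyde dehydrogenase that is not known as a main retinal enzyme, fell at 0 h (log2 fold change −3.44, limma adjusted p = 3.5e-09) and at 16 h (−4.23, limma adjusted p = 2.5e-10). ALDH1L1, a folate enzyme of the same superfamily, fell at 0 h (log2 fold change −2.43, limma adjusted p = 0.00026). Of the 7 other aldehyde dehydrogenases tested, these 2 were called at each time, a count too small to be set against the shares of all genes.

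On the uptake and disposal side, STRA6, the cell surface receptor that brings in retinol, was the gene called among 4 tested for uptake, binding and storage, and is named here after its values were seen. It had 3960 and 4701 normalized reads in untreated control cells and 2413 and 2266 at 16 h, and 1321 and 1037 in depleted cells at 0 h and 767 and 529 at 16 h, with depletion differences of −1.88 and −1.87. The retinoic acid hydroxylase CYP26A1, itself a classical target of retinoic acid, had 47.9 and 51.5 normalized reads in untreated control cells, 7.73 and 18.5 in control cells at 16 h, 9.38 and 20.6 in depleted cells at 0 h, and 3.35 and 2.47 in depleted cells at 16 h. It was called lower in all 4 group comparisons, with −1.76 after depletion at 0 h and −1.75 at 16 h, although the last group rests on 4 and 2 reads. Each of the 4 calls of CYP26A1 was lost without 1 library, at 0 h of depletion without replicate A of depleted cells (−1.23), at 16 h without replicate B of control cells (−1.17), under TNF-α in control cells without their replicate A at 16 h (−1.38) and in depleted cells without their replicate B at 0 h (−1.42). CYP26B1 was called lower at 0 h by limma (−1.54), though not by edgeR (−1.27) or DESeq2 (−1.38), nor with no filter or with either other pseudocount, nor without either replicate of control cells (−1.44 and −1.64) or replicate B of depleted cells (−0.69) at 0 h. At 16 h (−1.35) edgeR called it lower, and limma and DESeq2 did not. CYP26C1 had no read. Among the 3 tested genes known to respond to retinoic acid, RARRES2 (chemerin) fell at 16 h (log2 fold change −3.13, limma adjusted p = 5.1e-06), in a stretch of chromosome 7 whose neighbours had a median of −1.07. This value rests on 15 and 2 reads in replicates A and B of depleted cells at 16 h. It was −2.15 without replicate B and −4.11 without replicate A of these cells. TGM2, a transglutaminase, had differences of 0.40 and 0.32.

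Of the 8 receptors and coregulators tested, limma, edgeR and DESeq2 alike called 0 at 0 h. limma called 9.55% of all genes tested lower and 5.89% higher there, and 8 genes are too few to be set against these shares. At an unadjusted limma p under 0.05, 5 of the 8 were higher and 0 lower, and the share of all genes at this limit was not counted. NRIP1, a corepressor of hormone-bound nuclear receptors, was called lower at 16 h. NRIP1 rose with TNF-α in control cells, from 118 and 150 to 247 and 354 normalized reads (log2 fold change 1.15, limma adjusted p = 6.1e-05), and had 127 and 143 in depleted cells at 16 h. Without replicate B of control cells at 16 h its rise was 0.89 and its depletion effect −0.87, without replicate A of control cells at 0 h its rise was 0.98, and with the neighbourhood median removed its depletion effect was −0.82, none of them 2-fold. RARG, the other retinoic acid receptor detected, had 469 and 429 normalized reads in untreated control cells, 390 and 343 at 16 h, 651 and 635 in depleted cells at 0 h, and 324 and 315 at 16 h. Its depletion effect at 16 h differed from that at 0 h (−0.71 on the log2 scale, limma adjusted p = 0.0052). RARG and ALDH2 are named for their small interaction p within the pathway list, so that the differences of both are descriptions. ALDH2, the mitochondrial acetaldehyde dehydrogenase, showed a difference of the same size in the same direction (−0.71, limma adjusted p = 0.0066), which was lost without replicate A of depleted cells at 0 h (−0.63, limma adjusted p = 0.064). Of the 5 tested genes known to respond to VDR, limma and DESeq2 called 0 after depletion at either time. limma called 9.55% of all genes tested lower and 5.89% higher at 0 h, and 10.2% and 5.03% at 16 h. With 5 genes a count of 0 is too small to be set against these shares. edgeR called 1 of the 5 lower at 0 h (CD14, named after its values were seen). At an unadjusted limma p under 0.05, 1 was higher and 3 lower at 0 h, and 1 higher and 2 lower at 16 h. The counts at the unadjusted limit have no share of all genes beside them, so that nothing is read from them.

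Under TNF-α, the list had 2 genes called higher and 7 lower in control cells and 1 higher and 9 lower in depleted cells, beside 2.97% and 4.27% and then 1.86% and 4.5% of all genes, with medians of −0.24 and −0.22 against −0.05 and −0.06 over all genes tested. SDR16C5, a retinol dehydrogenase, rose from 11.6 and 10.6 to 65.7 and 61.2 normalized reads in control cells (log2 fold change 2.41, limma adjusted p = 2.1e-06) and from 20.8 and 21.9 to 80.5 and 61.7 in depleted cells (1.68, limma adjusted p = 0.00015). RDH5, another retinol dehydrogenase, fell in control cells (log2 fold change −1.68, limma adjusted p = 0.00041), and LRP2 fell as well (−3.43, limma adjusted p = 1.1e-08). LRP2 in depleted cells was at least 9.91-fold lower, against a floor of 3 reads per library.

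**Figure D4:**
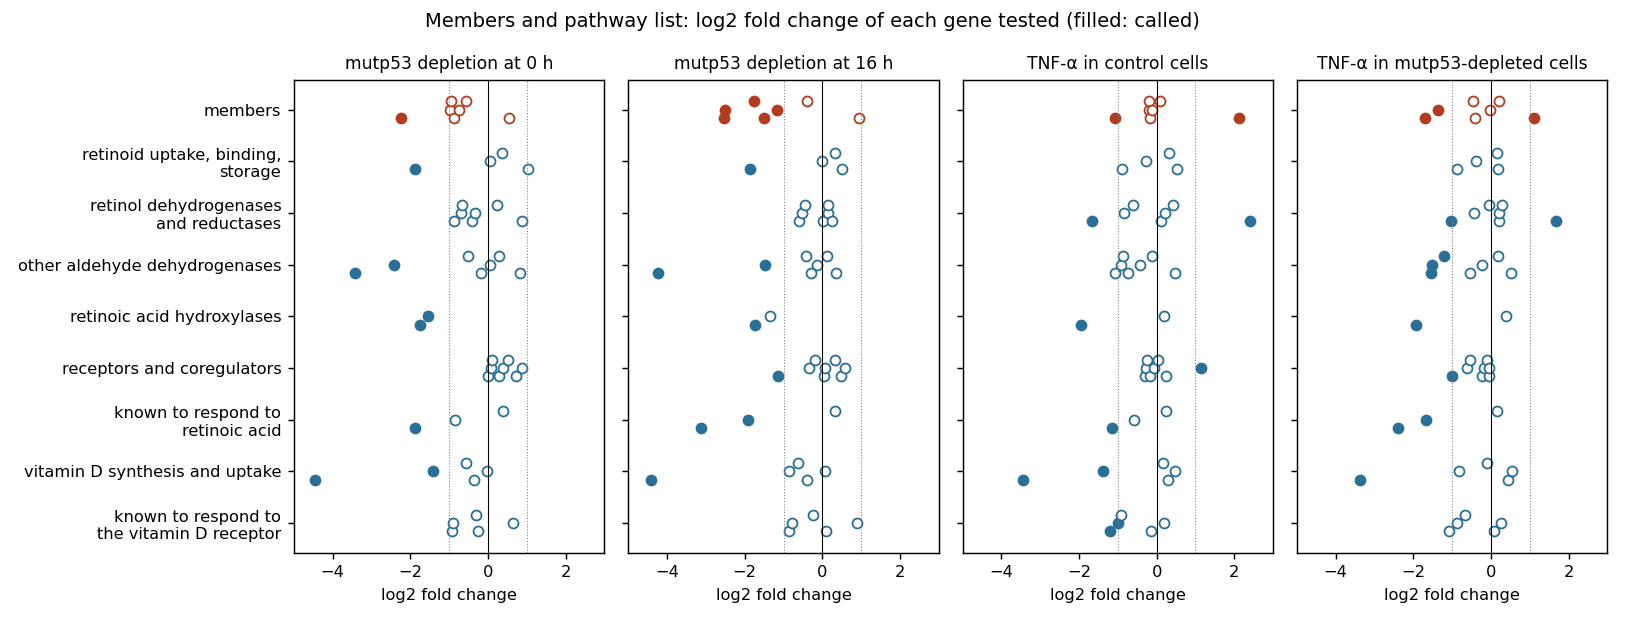
Log2 fold changes (horizontal axes) of the 7 genes tested (red, top line) and of the 41 tested genes of the pathway list (blue) by role, 1 point per gene, with filled points for calls and dotted lines at 2-fold. The calls after mutp53 depletion all lie to the left of 0.

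The genes closest to ALDH1A3 in pattern, by the root mean square difference of log2 values centred over the 8 libraries, were HIST1H1C, EBF4 and ARHGEF16, each with a difference of 0.12. Those closest to DHRS3 were HOTAIRM1 (0.13), HOXA3 (0.19) and OCEL1 (0.23). Those closest to CYP24A1 were PERP (0.14), STEAP1 (0.25) and the readthrough gene RTEL1-TNFRSF6B (0.30), which shares exons with TNFRSF6B. PERP, for example, had 2893 and 3013 normalized reads in untreated control cells and 14869 and 14275 at 16 h, and 1803 and 1536 in depleted cells at 0 h and 4684 and 3080 at 16 h.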

How the data were processed

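SW480 mRNA-seq libraries of 4 groups, with 2 biological replicates each, were analysed. GRO-seq and ChIP-seq were not used here. The authors mapped reads with STAR and counted those on RefSeq exons, by strand, with HOMER. The signal values the authors deposited are normalized reads scaled to equal library totals, with coordinates of hg19 by the file header (hg38 in the study's methods). Whole reads were recovered for 100.0% of values within 0.05 of a whole number. The deposited log2 fold changes and p-value columns of the authors' 4 comparisons, made with edgeR, were not used.

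The members and lists were chosen with earlier results of these data known. All genes were fitted with limma 3.58.1 (R 4.3.3, trend) on log2(value + 1) as 4 group means, for genes with a mean of at least 2.5 (14800 of 26457). The pseudocount brings fold changes of weak genes toward 1. Calls needed an adjusted p under 0.05 and 2-fold, and the interaction (depletion at 16 h less that at 0 h) the adjusted p alone. Named genes were the 10 members, the 3 largest called changes in each direction of the pathway list per comparison, its 3 smallest interaction p-values and the 3 genes most alike to CYP24A1, ALDH1A3 and DHRS3. STRA6, CYP26B1, TGM2 and CD14, and CYP26A1 at 0 h and 16 h of depletion, were named after their values were seen. Some results are not reported here.

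Bounds count 3 reads per library. Within groups the replicates were further apart than sampling noise (chi-square per gene 2.07 to 3.93). TMM factors were 0.97 to 1.03. Promoters came from a RefSeq table of GRCh38.p14, in which 8 of the 10 genes matched by symbol. Alternatives were median-ratio scaling, no filter or a minimum mean of 10, a pseudocount of 0.1 or 5, and the replicate letter as a block. Others were edgeR 4.0.16 and DESeq2 1.42.0 on recovered reads, and the median of up to 51 neighbouring genes removed. Each of the 8 libraries was also left out in turn. Scripts were tested on simulated data. Plots used Python 3.11.15 and matplotlib 3.10.9.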

Additional observations from a re-analysis of the deposited data

Results flagged for a closer look

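The depletion effect at 16 h less that at 0 h passed limma's interaction contrast, with an adjusted p under 0.05 over all 14800 genes tested, for DHRS3 (−1.52 on the log2 scale), VDR (−0.55), RARG (−0.71), ALDH2 (−0.71) and NRIP1 (−1.20). All 5 genes come from lists chosen with earlier results of these libraries known, and the last 3 are named for having the smallest interaction p of the pathway list, so that all 5 values are descriptions. Depletion at 0 h and at 16 h gave −0.99 and −2.51 for DHRS3 and −0.96 and −1.51 for VDR. It gave 0.52 and −0.19 for RARG, 0.27 and −0.43 for ALDH2 and 0.07 and −1.13 for NRIP1. The difference was negative for all 5, where 2.21% of all genes tested were called lower and 0.655% higher, so that nothing is read from the shared direction. The NRIP1 difference was lost without replicate A of control cells at 0 h (−1.02), replicate B of control cells at 16 h (−0.94) or replicate B of depleted cells at 0 h (−1.06), and that of ALDH2 without replicate A of depleted cells at 0 h (−0.63). Of the other calls of the pathway list, named after their values were seen, DHCR7 (0.56) and RDH10 (0.82) had positive differences.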

How the results depend on the processing

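Of 595 values of the 7 genes tested under 17 alternatives, 578 kept their direction and their side of the threshold. The count called after depletion at 0 h was 1 and became 2 with median-ratio scaling, edgeR, DESeq2 or the neighbourhood median removed. The gene added was DHRS3 (−1.01, −1.02 and −1.01) in the first 3 settings and VDR (−1.44) in the last. Leaving out 1 library gave 1 to 3 calls at 0 h, 5 to 6 at 16 h, 1 to 2 for TNF-α in control cells, 2 to 3 in depleted cells and 2 to 3 for the interaction. The 3 calls at 0 h (ALDH1A3, CRABP2 and VDR) came without replicate B of control cells at 0 h. RXRA turned direction at 16 h of depletion with the neighbourhood median removed (0.029, since 1 median over both times, −0.43, was taken) and, under TNF-α in depleted cells, with median-ratio scaling (0.033), edgeR (0.021), DESeq2 (0.029) and without replicate A of depleted cells at 16 h (leaving out 1 library gave −0.075 to 0.0098). On the pathway list the interaction had 7 calls, 3 with no filter and 2 to 6 with 1 library left out, the fewest without replicate B of control cells at 16 h, and the other counts stayed within 7 to 8, 7 to 9, 6 to 9 and 7 to 10. Of 424 values of the named pathway genes, 403 kept their direction and side, 21 lost the call and 0 turned direction. The causes were not tested. The replicate letters were not treated as pairs. The deviations of same-lettered libraries had correlations of −0.02 to 0.07 over all genes tested, which cannot exclude a pairing that acts on some of the genes. A fit with the replicate block gave the same counts for the 7 genes and 8 pathway calls for the interaction. With 18 to 44 reads in depleted cells at 0 h, CYP24A1 is limited by depth, as is CYP26A1 at 16 h.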
